A study of Mus musculus with 12 samples.

Results

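The nuclear-encoded subunits of the oxidative phosphorylation machinery were followed in the hypothalamus of obese mice treated with withaferin A, celastrol or DMSO. They were taken by symbol: genes with a probe set of a single symbol whose names begin Nduf with a, b, c, s or v and a digit (complex I), Sdha to Sdhd (complex II), Uqcr (complex III), Cox4 to Cox8 (complex IV) or Atp5 (complex V). This gave 81 of the 19938 genes with such a probe set. They fell into 35 genes of complex I, 4 of complex II, 8 of complex III, 17 of complex IV and 17 of complex V. All 81 matched a mouse RefSeq gene by identifier, with the same symbol. The name rule follows symbols and not biochemistry: Cox7a2l, known as a factor of respiratory supercomplexes, is counted with complex IV, and Ndufa4, now known as a subunit of complex IV, is counted with complex I.

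There were 3 groups to compare, all of male C57BL/6J mice made obese by a diet with 45% fat, begun at 3 weeks of age and kept up for 20 weeks, so that they were 23 weeks old. All animals first had intraperitoneal DMSO for 4 days. For 4 further days they then had a daily intraperitoneal dose of withaferin A at 2 mg/kg, of celastrol at 100 µg/kg, or of DMSO, the vehicle. Each group had 4 arrays, which the labels call biological replicates without saying how many mice one array stands for. No lean or untreated group was analysed here, so every contrast is between obese, injected mice.

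Oxidative phosphorylation makes most of a neuron's ATP. Complex I takes electrons from NADH and complex II from succinate; both pass them through coenzyme Q to complex III, and cytochrome c carries them on to complex IV, which reduces oxygen. Complexes I, III and IV pump protons across the inner mitochondrial membrane, and complex V, the ATP synthase, uses the gradient to make ATP. Most subunits are encoded in the nucleus, while a core set comes from mitochondrial DNA and is not analysed here. Withaferin A and celastrol are plant compounds known to make obese mice eat less and lose weight.

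The values are log2 signals after RMA, a method that corrects background, equalises the arrays and summarises the probes of a probe set. Array medians lay between 6.89 and 6.98. The signal of one probe set cannot be set against that of another, so genes are compared between groups and never with each other. Of 10 hypothalamic marker genes, 9 were on the array with a symbol of their own and all 9 were above the filter on dim genes, as were all 9 neuronal markers. All 6 thalamic markers were above it too, so passing the filter does not mark the tissue. Of the 81 subunits, 79 passed that filter, a mean log2 signal of 5.81. Cox8b, a heart and muscle form, and Cox7b2, a testis form, fell below it with means of 5.66 and 4.67 and were not tested. Cox8c, also a testis form, passed closest to the filter, with a mean of 6.11.

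Promoters are shown for 5 subunits with low values after withaferin A: Ndufb6, which had the smallest p of all subunits, and the 4 with the next smallest p whose promoter held one of the motifs searched. Each runs from 250 bases before to 50 bases after the RefSeq start of the gene, 5′ to 3′ on the gene's strand, and capitals mark the motif letters.
Ndufb6, GRCm38.p6 chr4:40279372-40279671, minus strand: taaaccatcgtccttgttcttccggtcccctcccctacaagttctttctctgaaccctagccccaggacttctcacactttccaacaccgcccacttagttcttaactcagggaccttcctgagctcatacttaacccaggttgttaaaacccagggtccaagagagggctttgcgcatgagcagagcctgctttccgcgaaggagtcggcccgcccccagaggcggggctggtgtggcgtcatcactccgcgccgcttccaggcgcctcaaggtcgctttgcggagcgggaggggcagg
Cox6a1, GRCm38.p6 chr5:115348909-115349208, minus strand: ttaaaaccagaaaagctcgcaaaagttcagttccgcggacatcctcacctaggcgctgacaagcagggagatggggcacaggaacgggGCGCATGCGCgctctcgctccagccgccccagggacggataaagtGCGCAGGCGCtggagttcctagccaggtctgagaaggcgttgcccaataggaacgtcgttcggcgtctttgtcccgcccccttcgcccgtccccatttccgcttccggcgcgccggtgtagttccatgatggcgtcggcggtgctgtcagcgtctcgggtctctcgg
Atp5h, GRCm38.p6 chr11:115419870-115420169, minus strand: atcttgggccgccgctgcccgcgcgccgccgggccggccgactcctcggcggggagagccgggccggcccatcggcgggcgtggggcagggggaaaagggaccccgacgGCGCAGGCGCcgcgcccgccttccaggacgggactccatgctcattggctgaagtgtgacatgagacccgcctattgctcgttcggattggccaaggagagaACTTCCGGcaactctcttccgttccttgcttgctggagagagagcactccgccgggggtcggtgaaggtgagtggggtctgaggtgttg
Ndufb8, GRCm38.p6 chr19:44555393-44555692, minus strand: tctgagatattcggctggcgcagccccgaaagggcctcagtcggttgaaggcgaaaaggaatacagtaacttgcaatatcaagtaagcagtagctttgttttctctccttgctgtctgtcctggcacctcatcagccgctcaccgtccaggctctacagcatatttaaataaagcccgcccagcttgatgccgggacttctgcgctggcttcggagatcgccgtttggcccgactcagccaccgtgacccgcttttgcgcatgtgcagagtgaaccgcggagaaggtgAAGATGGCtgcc
Ndufa6, GRCm38.p6 chr15:82354242-82354541, minus strand: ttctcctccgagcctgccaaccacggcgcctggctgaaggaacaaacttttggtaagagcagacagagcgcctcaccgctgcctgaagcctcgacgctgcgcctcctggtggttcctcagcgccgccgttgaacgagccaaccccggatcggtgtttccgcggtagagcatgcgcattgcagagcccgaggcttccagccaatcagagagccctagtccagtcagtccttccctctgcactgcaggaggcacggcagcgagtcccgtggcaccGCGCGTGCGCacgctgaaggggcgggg
The motifs were searched on both strands. They were GCGCA, any base and GCGC for NRF1, an activator of respiratory genes, AAGATGGC for YY1, CCGGAAGT for the ETS family (GABP, also called NRF2, belongs to it) and TCAAGGTCA for the estrogen-related receptors.

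Cox6a1 held the NRF1 letters at 162 and again at 117 bases before the start. Atp5h held them 141 bases before the start and the ETS letters 39 bases before it. In Ndufb8 the YY1 letters began 38 bases after the start, and in Ndufa6 the NRF1 letters began 23 bases after it. None of these matches overlapped another, and Ndufb6 held none of the 4 motifs. RefSeq promoters were found for 66 of the 81 subunits. NRF1 letters occurred in 16 of the 66, or 24.2%, against 5.19% of the 27025 genes with a promoter in the table. For YY1 the shares were 15.2% and 3.19%, for ETS 7.58% and 4.31%, and for the estrogen-related receptors 3.03% and 0.466%. The median GC content was 57.3% for subunit promoters and 52.7% for all promoters. Among subunits with low values after withaferin A (unadjusted p under 0.05 and below DMSO) 4 of 24 held NRF1 letters, and among the other tested subunits 12 of 40 did. A match is a description of these letters and not a binding site.

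Withaferin A was set against DMSO to ask how the subunits stood after the treatment. Most subunits lay slightly below DMSO: 67 of the 79 tested had a lower mean and 12 a higher one (52 and 27 after quantile normalization and after cyclic loess), with a median log2 change of -0.10 against -0.0041 for all 14953 genes tested. None of the 79 passed an adjusted p of 0.05, in limma with Benjamini-Hochberg adjustment, where 0% of all genes did, with 1362 lower and 990 higher at an unadjusted p under 0.05; the smallest adjusted p of a subunit was 0.155. At an unadjusted p under 0.05, 27 subunits were lower (34.2%), against 9.11% of all genes, and 1 was higher, against 6.62% of all genes. In 18 subunits all withaferin A arrays lay below all DMSO arrays, against 4.69% of all genes, and in 0 all lay above, against 2.91%. The fitted changes were small and ran from -0.33 for Cox6a1 to 0.19 for Cox6a2.

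On the deposited scale the shift was seen on every withaferin A array. Averaged over the 79 subunits, the deviation from the DMSO mean came to -0.109, -0.104, -0.080 and -0.097 with withaferin A, to -0.010, -0.028, -0.054 and -0.088 with celastrol, and to 0.037, -0.040, -0.021 and 0.024 with DMSO. All withaferin A values lay below all DMSO values, and the 4 celastrol values overlapped with both groups. Between 61 and 69 subunits were below their DMSO mean on a withaferin A array, between 43 and 63 on a celastrol array and between 27 and 59 on a DMSO array. For 46 subunits all 4 withaferin A arrays lay below the DMSO mean, and for 24 all 4 celastrol arrays did. These last counts were not made over all genes, so they have no share to be read against. The counts on each array are also given without a share of all genes. Over all genes tested the mean deviation was -0.020 to 0.0087 with withaferin A, -0.028 to 0.022 with celastrol and -0.0063 to 0.012 with DMSO. All genes tested are not matched to the subunits in signal, and the array means are given on the deposited scale only.

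**Figure D1:**
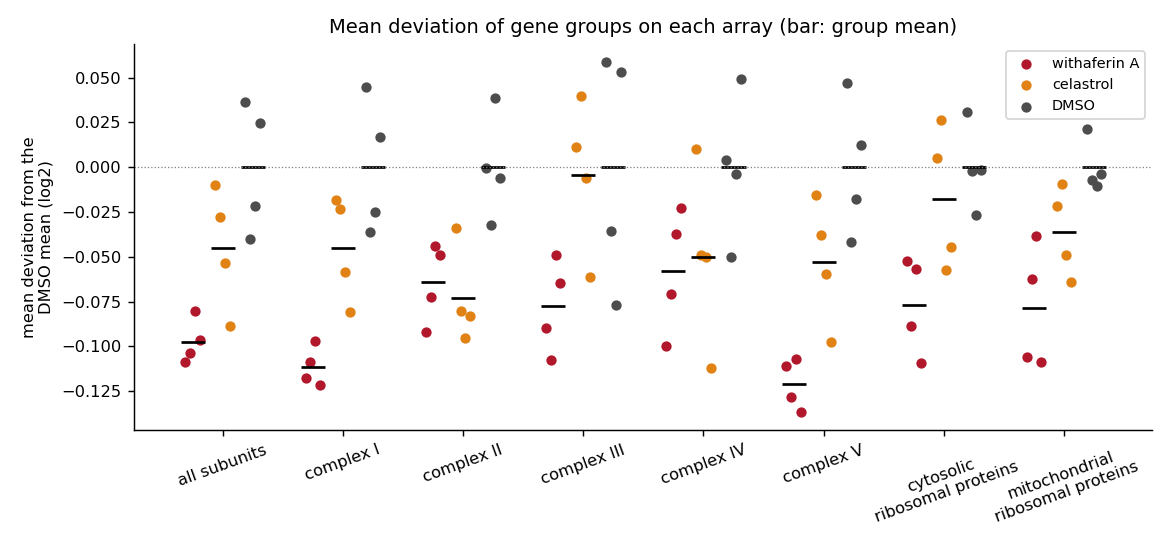
Mean deviation from the DMSO mean (log2, y axis) of all tested subunits, of each complex and of both families of ribosomal proteins; each point is 1 array, each bar the mean of 4 arrays, with withaferin A in red, celastrol in orange and DMSO in grey. For all subunits, on the deposited scale, the withaferin A arrays lie between -0.109 and -0.080, below all DMSO arrays. The ribosomal proteins also lie low on the withaferin A arrays.

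Several measures moved together with the withaferin A values. Bright genes as a whole lay lower on these arrays: over 5 bands of equally many genes by mean signal, from dim to bright, the median change of all genes was 0.09, 0.03, -0.01, -0.03 and -0.05, and 55 of the 79 subunits were in the brightest band. In that band 21 of 55 subunits (38.2%) were lower at an unadjusted p under 0.05, against 16.5% of all its genes, with medians of -0.10 and -0.05. The SD over all probe sets of an array was 2.19 to 2.22 with withaferin A, 2.21 to 2.25 with celastrol and 2.23 to 2.28 with DMSO. When the arrays were given equal distributions by quantile normalization, the median of the subunits was -0.04 and 16 (20.3%) were lower at an unadjusted p under 0.05, against 6.92% of all genes. With cyclic loess normalization, chosen after the data were seen, the median was -0.05 and the count 14 (17.7%), against 7.07% of all genes. For complexes I to V in turn the medians were -0.06, -0.03, 0.0016, -0.02 and -0.06 after quantile normalization and -0.07, -0.04, -0.0019, -0.01 and -0.07 after cyclic loess. With each array centred on its median, the subunit median was -0.14 and 39 were lower (49.4%), against 15.5% of all genes.

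**Figure D2:**
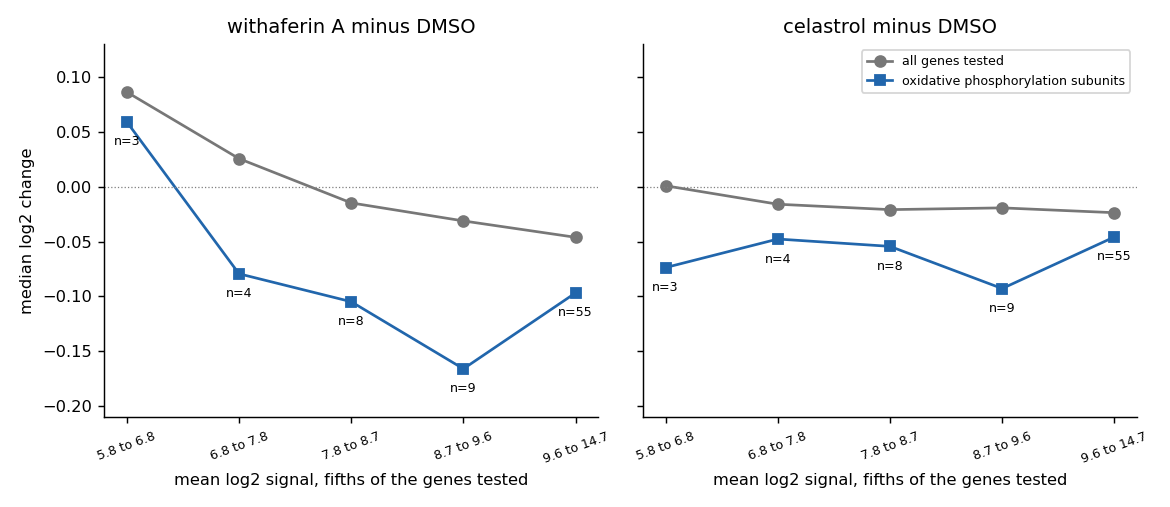
Median log2 change (y axis) of all genes tested (grey circles) and of the subunits (blue squares, with their number) in 5 bands of genes by mean log2 signal (x axis), for withaferin A minus DMSO and celastrol minus DMSO. After withaferin A the median of all genes goes down with signal, with 0.09 in the dimmest and -0.05 in the brightest band, and the subunits lie below it in all 5 bands.

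Markers of other cells also differed between groups. The 7 measured oligodendrocyte markers had mean deviations between -0.264 and -0.073 with withaferin A, between -0.268 and -0.226 with celastrol and between -0.047 and 0.058 with DMSO. The 9 neuronal markers had -0.079 to -0.010, -0.062 to 0.005 and -0.054 to 0.063 in the same order of groups, and the 9 hypothalamic ones -0.229 to -0.010, -0.131 to 0.061 and -0.049 to 0.077. Microglial markers had -0.356 to -0.036, -0.211 to -0.0029 and -0.039 to 0.066, endothelial ones -0.195 to 0.022, -0.264 to -0.092 and -0.041 to 0.040, and pericyte ones -0.151 to -0.0032, -0.129 to -0.085 and -0.029 to 0.063. All celastrol arrays lay below all DMSO arrays for oligodendrocyte, endothelial and pericyte markers. The withaferin A arrays also lay below all DMSO arrays for oligodendrocyte markers, and overlapped with them for endothelial and pericyte ones. The 6 thalamic markers ranged widely in every group, and the groups overlapped. They had -0.302 to 0.668 with withaferin A, -0.112 to 0.889 with celastrol and -0.535 to 0.673 with DMSO. Pituitary markers, 4 of which were tested, stood at 0.034 to 0.586 with withaferin A, at 0.488, 3.09, 0.603 and 0.693 with celastrol, and at -0.293 to 0.293 with DMSO. All celastrol arrays thus lay above all DMSO arrays, with replicate 2 highest. Without that array and withaferin A replicate 1, 20 subunits were lower at an unadjusted p under 0.05, against 6.47% of all genes. The part of signal range and cell markers in the subunit result was not tested, and in tissue RNA fewer cells of a type and less RNA per cell cannot be told apart.

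**Figure D3:**
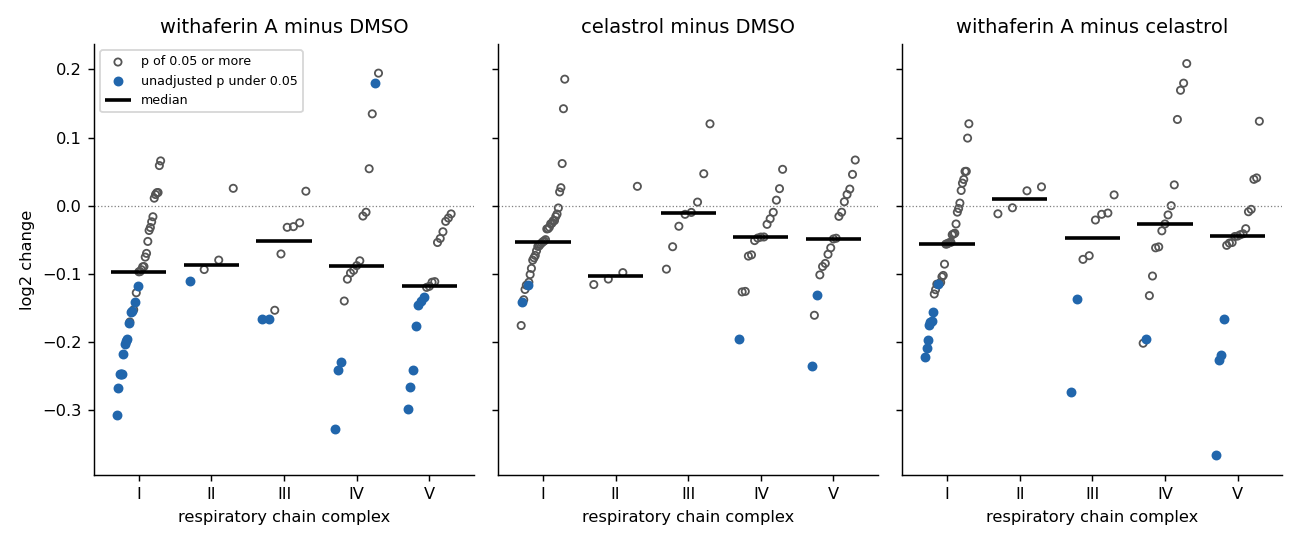
Log2 change (y axis) of each tested subunit by complex (x axis) in 3 comparisons; filled points have an unadjusted p under 0.05, open points do not, and bars are medians. For withaferin A minus DMSO all 17 complex V subunits lie below 0 and the medians of complexes I to V lie between -0.12 and -0.05; after quantile normalization 6 of the 17 lie above 0 and the complex medians lie between -0.06 and 0.0016.

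Complex I, the entry of electrons from NADH, held 14 of the 27 low subunits. Of its 35 subunits 29 lay below DMSO, with a median of -0.10. The share differed among the gene families of the complex: 6 of 9 Ndufb genes, 4 of 14 Ndufa genes, 1 of 7 Ndufs genes, 2 of 3 Ndufv genes and 1 of 2 Ndufc genes were lower at an unadjusted p under 0.05. A division into catalytic core and accessory subunits, made after the values were seen, gave 1 of 6 core subunits with a median of -0.02 and 13 of 27 accessory subunits with a median of -0.13. After quantile normalization and cyclic loess the core median was above 0 (0.05 and 0.04) and the accessory median -0.08 and -0.09. The difference between these parts was not tested.

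Ndufb6, an accessory subunit of the membrane arm, had signals of 10.28, 10.35, 10.15 and 10.35 on withaferin A arrays, 10.46, 10.57, 10.33 and 10.45 on celastrol arrays, and 10.71, 10.48, 10.52 and 10.65 on DMSO arrays. All withaferin A arrays were below all DMSO arrays, and the celastrol arrays overlapped with both. The log2 change was -0.31 ± 0.07 (SE, n = 4 per group, adjusted p = 0.155), or 0.809 of the DMSO level, with a 95% interval of -0.46 to -0.15.

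Ndufv2 and Ndufv3 belong to the NADH-oxidising tip of the complex, where Ndufv2 carries an iron-sulfur cluster and Ndufv3 is an accessory protein. Ndufv3 had 8.64, 8.51, 8.68 and 8.50 on withaferin A arrays, 8.76, 8.81, 8.75 and 8.64 on celastrol arrays, and 8.87, 8.76, 8.86 and 8.84 on DMSO arrays. Ndufv2 had 10.97, 10.94, 10.90 and 10.81 on withaferin A arrays, 11.07, 11.21, 11.09 and 11.08 on celastrol arrays, and 11.31, 11.22, 11.03 and 11.13 on DMSO arrays. In both genes the withaferin A and DMSO arrays did not overlap. The changes were -0.25 ± 0.06 for Ndufv3 and -0.27 ± 0.07 for Ndufv2, each with an adjusted p of 0.155. Ndufv1, which binds the flavin and NADH beside them, had a change of 0.01 ± 0.05, with an interval of -0.10 to 0.12.

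Ndufb8, another membrane arm subunit, had 9.80, 9.89, 9.82 and 9.68 on withaferin A arrays, 9.91, 10.15, 9.89 and 10.02 on celastrol arrays, and 10.08, 9.96, 10.003 and 10.13 on DMSO arrays. Its change was -0.25 ± 0.07 (adjusted p = 0.169). The other 10 low subunits, named after their values were seen, were Ndufb5, Ndufc2, Ndufa6, Ndufa12, Ndufb9, Ndufa7, Ndufs4, Ndufb2, Ndufb11 and Ndufa2, with changes from -0.25 for Ndufb5 to -0.12 for Ndufb11. Loss of Ndufs4 is known as a cause of Leigh syndrome, and its change was -0.17 ± 0.07 (adjusted p = 0.268). The core subunits Ndufs7 and Ndufs8, which carry iron-sulfur clusters on the path to coenzyme Q, had changes of 0.07 ± 0.06 and 0.02 ± 0.06.

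**Figure D4:**
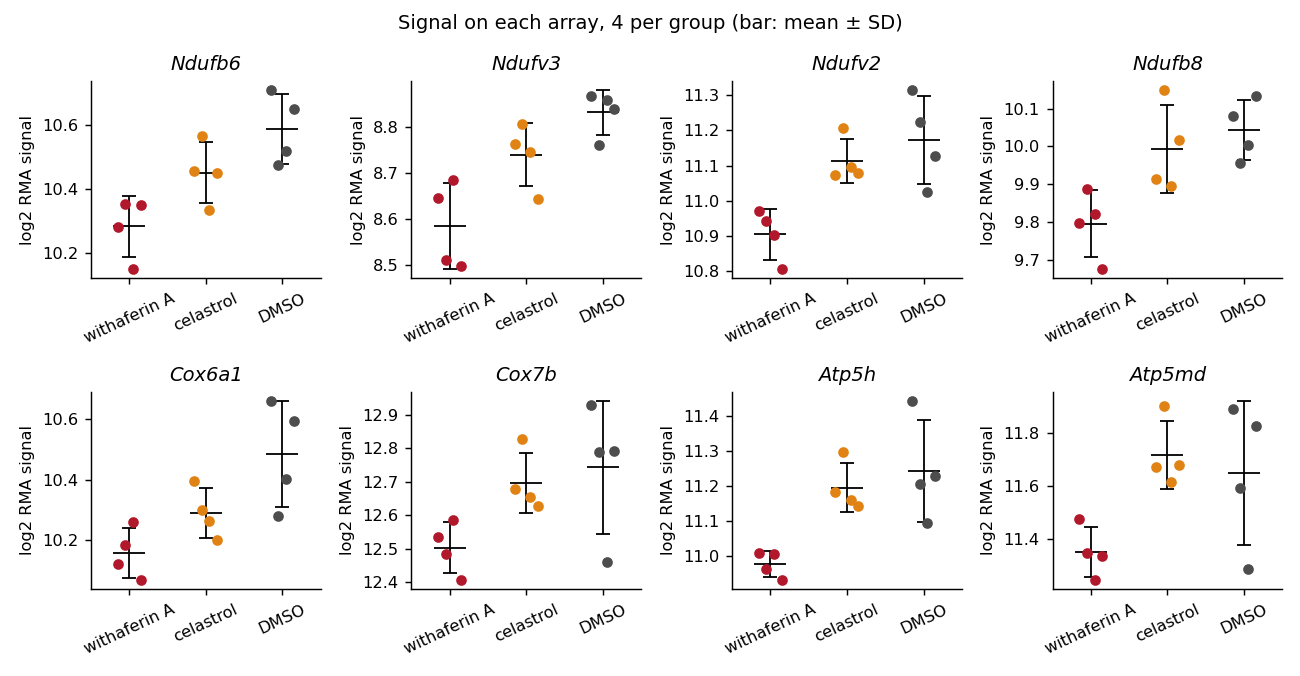
Log2 RMA signal (y axis, with a different range in each panel) of 8 subunits on each array, with withaferin A left, celastrol in the middle and DMSO right; bars are means and whiskers SDs of 4 arrays. In Ndufb6, Ndufv3, Ndufv2, Ndufb8, Cox6a1 and Atp5h all withaferin A points lie below all DMSO points, while in Cox7b and Atp5md DMSO replicate 3 lies among the withaferin A points.

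Complex II, succinate dehydrogenase, is also an enzyme of the citric acid cycle and is encoded in the nucleus alone. Sdha, the flavoprotein that oxidises succinate, had 11.59, 11.68, 11.59 and 11.62 on withaferin A arrays, 11.62, 11.62, 11.62 and 11.64 on celastrol arrays, and 11.60, 11.60, 11.57 and 11.62 on DMSO arrays. Its withaferin A change of 0.03 ± 0.04 had an interval of -0.07 to 0.12, and the sign turned to -0.02 with each array centred on its median. After cyclic loess its change was 0.098, with an unadjusted p of 0.0487 and an adjusted p of 0.379 in limma. The iron-sulfur subunit Sdhb had a change of -0.08 ± 0.05. The membrane anchors Sdhc and Sdhd had changes of -0.11 ± 0.05 (adjusted p = 0.305) and -0.09 ± 0.06, and Sdhc was the only one of the 4 with an unadjusted p under 0.05. Its signals were 10.61, 10.63, 10.67 and 10.68 on withaferin A arrays, 10.68, 10.69, 10.67 and 10.61 on celastrol arrays, and 10.81, 10.66, 10.79 and 10.77 on DMSO arrays, so that the groups overlapped.

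Complex III passes electrons to cytochrome c, and 2 of its 8 subunits were lower at an unadjusted p under 0.05, with a median over the complex of -0.05 that was 0.0016 after quantile normalization. Uqcrh, the hinge protein by the site where cytochrome c docks, had 10.91, 10.87, 10.95 and 10.95 on withaferin A arrays, 11.11, 11.14, 10.97 and 11.00 on celastrol arrays, and 11.19, 11.03, 11.06 and 11.06 on DMSO arrays. Its withaferin A arrays lay below every other array, with a change against DMSO of -0.17 ± 0.06 (adjusted p = 0.22). Uqcr10, a small subunit, had a change of -0.17 ± 0.08 (adjusted p = 0.304). Uqcrb, which helps bind coenzyme Q, had 11.47, 11.37, 11.43 and 11.41 on withaferin A arrays, 11.60, 11.86, 11.61 and 11.71 on celastrol arrays, and 11.90, 11.56, 11.28 and 11.55 on DMSO arrays. Its DMSO arrays covered the whole range of the other groups, and its change was -0.15 ± 0.10. The core proteins Uqcrc1 and Uqcrc2 and the Rieske protein Uqcrfs1 had changes of -0.02 ± 0.05, -0.03 ± 0.06 and 0.02 ± 0.09; Uqcrc1 and Uqcrc2 turned to 0.07 and 0.03 after quantile normalization.

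In complex IV the forms found in most tissues and those restricted to certain tissues were looked at apart. Of the 9 common forms all 9 lay below DMSO, with a median of -0.09, and 3 were lower at an unadjusted p under 0.05. After quantile normalization 7 of the 9 lay below DMSO and after cyclic loess 6 did, each with a median of -0.03. Of the 5 tested restricted forms 4 lay above DMSO, with a median of 0.13, and 1 was higher at an unadjusted p under 0.05. Their median was 0.05 after quantile normalization, with 4 of the 5 above DMSO, and also after cyclic loess, with 3 of the 5 above it. Skeletal muscle markers, 4 of which were tested, had mean deviations of 0.026 to 0.177 with withaferin A, -0.105 to 0.083 with celastrol and -0.086 to 0.052 with DMSO, and their part in these values was not tested. Of these 5 forms all but Cox6a2 were in the 2 dimmest bands, where the median of all genes was also above 0 after withaferin A, and the difference between the kinds of forms was not tested.

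Cox6a1, the common form of subunit VIa, had 10.12, 10.18, 10.26 and 10.07 on withaferin A arrays, 10.40, 10.30, 10.26 and 10.20 on celastrol arrays, and 10.66, 10.28, 10.40 and 10.59 on DMSO arrays. Its change of -0.33 ± 0.08 (adjusted p = 0.155) was the lowest value among all 79 subunits, and the withaferin A and DMSO arrays did not overlap. Its heart and muscle form Cox6a2, which in mice is also known from fast-spiking interneurons, had 7.74, 7.63, 8.18 and 8.61 on withaferin A arrays and 7.89, 7.45, 7.76 and 8.28 on DMSO arrays, with a change of 0.19 ± 0.24. The arrays of this form overlapped widely.

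Cox7b and Cox7a2 are small structural subunits with common expression. Cox7b had 12.53, 12.48, 12.59 and 12.41 on withaferin A arrays, 12.68, 12.83, 12.65 and 12.63 on celastrol arrays, and 12.93, 12.79, 12.46 and 12.79 on DMSO arrays. Cox7a2 had 10.06, 10.10, 10.14 and 10.18 on withaferin A arrays, 10.33, 10.44, 10.24 and 10.28 on celastrol arrays, and 10.55, 10.50, 9.99 and 10.37 on DMSO arrays. DMSO replicate 3 lay among the withaferin A arrays in Cox7b and below them in Cox7a2, and in both genes the other DMSO arrays lay above them. The changes were -0.24 ± 0.09 (adjusted p = 0.244) and -0.23 ± 0.10 (adjusted p = 0.291). Cox7a1, the heart and muscle form, had a change of -0.14 ± 0.08.

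Cox4i1, the regulatory subunit of most tissues, had 10.69, 10.73, 10.65 and 10.72 on withaferin A arrays and 10.69, 10.65, 10.71 and 10.78 on DMSO arrays, a change of -0.01 ± 0.05 that was 0.05 after quantile normalization. Its counterpart Cox4i2, known from lung and from oxygen sensing, had 7.33, 7.16, 7.10 and 7.22 on withaferin A arrays, 7.08, 7.07, 7.02 and 7.14 on celastrol arrays, and 6.76, 7.12, 7.18 and 7.03 on DMSO arrays. DMSO replicate 1 was lowest, the groups overlapped, and the change was 0.18 ± 0.08 (adjusted p = 0.312). As analysed here, Cox4i2 was the 1 subunit higher at an unadjusted p under 0.05. After quantile normalization 0 subunits were higher at that threshold. After cyclic loess the change of Cox4i2 was 0.13 (unadjusted p = 0.0931 in limma), and the 1 higher subunit was Sdha. The remaining pairs were Cox6b1 with -0.02 ± 0.05 (0.06 after quantile normalization) and its testis form Cox6b2 with 0.05 ± 0.08, and Cox8a with -0.11 ± 0.06 and its testis form Cox8c with 0.13 ± 0.12. Ndufa4 had a change of -0.15 ± 0.08, and Ndufa4l2, its form induced under low oxygen, 0.06 ± 0.10.

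Complex V, the ATP synthase, lay below DMSO in all 17 subunits, with a median of -0.12, and 7 of the 17 were lower at an unadjusted p under 0.05. After quantile normalization and after cyclic loess 11 of the 17 lay below DMSO. Grouped by their place in the enzyme, a division made after the values were seen, these were 3 of the 4 subunits of the peripheral stalk (median -0.19), 2 of the 3 genes of the c-ring (-0.14), 2 of the 5 further membrane subunits (-0.12) and 0 of the 5 subunits of the catalytic head and central stalk (-0.04). In the same order, the medians of these parts were -0.11, -0.04, -0.11 and 0.03 after quantile normalization. After cyclic loess they were -0.12, -0.06, -0.12 and 0.05, and the difference between the parts was not tested. The catalytic subunits Atp5a1 and Atp5b had changes of -0.02 ± 0.05 and -0.04 ± 0.05, which turned to 0.05 and 0.03 after quantile normalization.

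Atp5h and Atp5pb, subunits d and b of the stalk that holds the head still, were among the low ones. Atp5h had 11.01, 10.96, 11.00 and 10.93 on withaferin A arrays, 11.18, 11.30, 11.16 and 11.14 on celastrol arrays, and 11.44, 11.21, 11.09 and 11.23 on DMSO arrays. Atp5pb had 10.47, 10.23, 10.40 and 10.28 on withaferin A arrays, 10.49, 10.67, 10.52 and 10.60 on celastrol arrays, and 10.79, 10.59, 10.36 and 10.60 on DMSO arrays. In Atp5h the withaferin A arrays lay below all others, and in Atp5pb DMSO replicate 3 lay among them. The changes were -0.27 ± 0.07 (adjusted p = 0.163) and -0.24 ± 0.09 (adjusted p = 0.229). A second probe set of Atp5pb had a change of -0.05, and the mean of both had -0.15 (adjusted p = 0.264).

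Atp5g1, Atp5g2 and Atp5g3 encode the same mature c subunit, which forms the rotating ring. Atp5g2 had 11.58, 11.50, 11.55 and 11.53 on withaferin A arrays, 11.64, 11.64, 11.52 and 11.52 on celastrol arrays, and 11.69, 11.68, 11.73 and 11.64 on DMSO arrays. Its change was -0.15 ± 0.05 (adjusted p = 0.221), that of Atp5g1 -0.14 ± 0.05 (adjusted p = 0.249) and that of Atp5g3 -0.01 ± 0.05 (0.04 after quantile normalization). In Atp5g1 and Atp5g2, but not in Atp5g3, the withaferin A arrays did not overlap with the DMSO arrays on the deposited scale. After cyclic loess the changes were smaller, -0.07 for Atp5g2 and -0.06 for Atp5g1, with unadjusted p of 0.175 and 0.247 in limma. Atp5md, known as DAPIT, a small membrane subunit linked to dimers of the enzyme, had 11.47, 11.35, 11.25 and 11.33 on withaferin A arrays, 11.67, 11.90, 11.61 and 11.68 on celastrol arrays, and 11.89, 11.59, 11.29 and 11.82 on DMSO arrays. Its change was -0.30 ± 0.11 (adjusted p = 0.249), and DMSO replicate 3 again lay with the withaferin A arrays.

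One DMSO array set the side of the threshold for some of these genes. Without DMSO replicate 3, Cox7a2, Cox7b, Ndufv2, Atp5md and Atp5h passed the adjusted threshold for withaferin A against DMSO, as did 1.12% of all genes, each with an adjusted p of 0.0474 and changes from -0.42 for Atp5md to -0.32 for Atp5h; all other single omissions left 0 subunits past it. That array was the lowest of the DMSO arrays in 26 subunits and the highest in 24, so it was not low throughout. The count at an unadjusted p under 0.05 was 14 without DMSO replicate 1, against 4.98% of all genes, and 18 without DMSO replicate 4, against 7.50%.

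For 16 subunits the array had several probe sets with the one symbol. On the deposited scale every probe set of all 16 had a change below 0 for withaferin A minus DMSO. On that scale 67 of the 79 tested subunits lay below 0, and no share over all genes is given for this agreement. After cyclic loess the brightest probe sets of Uqcr11, Ndufs3 and Cox6c lay above 0, at 0.018, 0.0082 and 0.0041. Atp5md had -0.30, -0.38 and -0.46, Atp5h had -0.27, -0.32 and -0.34, and the 6 probe sets of Atp5l, subunit g of the synthase, lay between -0.26 and -0.15. The sizes differed more in Atp5pb, with -0.24 and -0.05. Probe sets of one gene can share its transcript, and genes of this group are known for near-identical processed copies in the genome, so these values are not independent. A further 6 probe sets, for Cox7c, Ndufb4 and Ndufs5, carried several symbols and were left out by the rule. Their changes lay between -0.34 and -0.20.

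Other genes of the pathway gave fewer low values. Of 136 tested genes beyond the subunits, 8 were lower and 4 higher for withaferin A against DMSO at an unadjusted p under 0.05. These shares of 5.88% and 2.94% are below those of all genes, 9.11% and 6.62%. None passed the adjusted threshold, and the median was -0.03. Among 45 assembly factors of complexes I to V 2 were lower: Uqcc1, for complex III (-0.16 ± 0.07), and Cmc1, for complex IV (-0.15 ± 0.07). Cytochrome c, from Cycs, had a change of -0.21 ± 0.10 (adjusted p = 0.334). In the list of crista and prohibitin proteins 3 of 8 were lower, namely Immt, a core protein of crista junctions (-0.18 ± 0.05), Higd2a (-0.15 ± 0.05) and Apool (-0.26 ± 0.10). The import receptor Tomm20 had -0.24 ± 0.08 and was the 1 low gene of 14 in its list.

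Among citric acid cycle enzymes 1 of 13 was lower (Suclg1, -0.12 ± 0.06), and among glycolytic enzymes 0 of 13. Of the 15 regulators of mitochondrial biogenesis 2 were higher: Twnk, the mitochondrial DNA helicase (0.22 ± 0.08, adjusted p = 0.232), and Ppargc1b, a coactivator of respiratory genes (0.14 ± 0.05, adjusted p = 0.245). Families outside the pathway also lay low. Cytosolic ribosomal proteins were lower in 24 of 67 (35.8%) and higher in 3, with a median of -0.08, and mitochondrial ribosomal proteins were lower in 15 of 77 (19.5%), with a median of -0.08. The share of subunits (34.2%) was thus near that of the cytosolic ribosomal proteins.

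**Figure D5:**
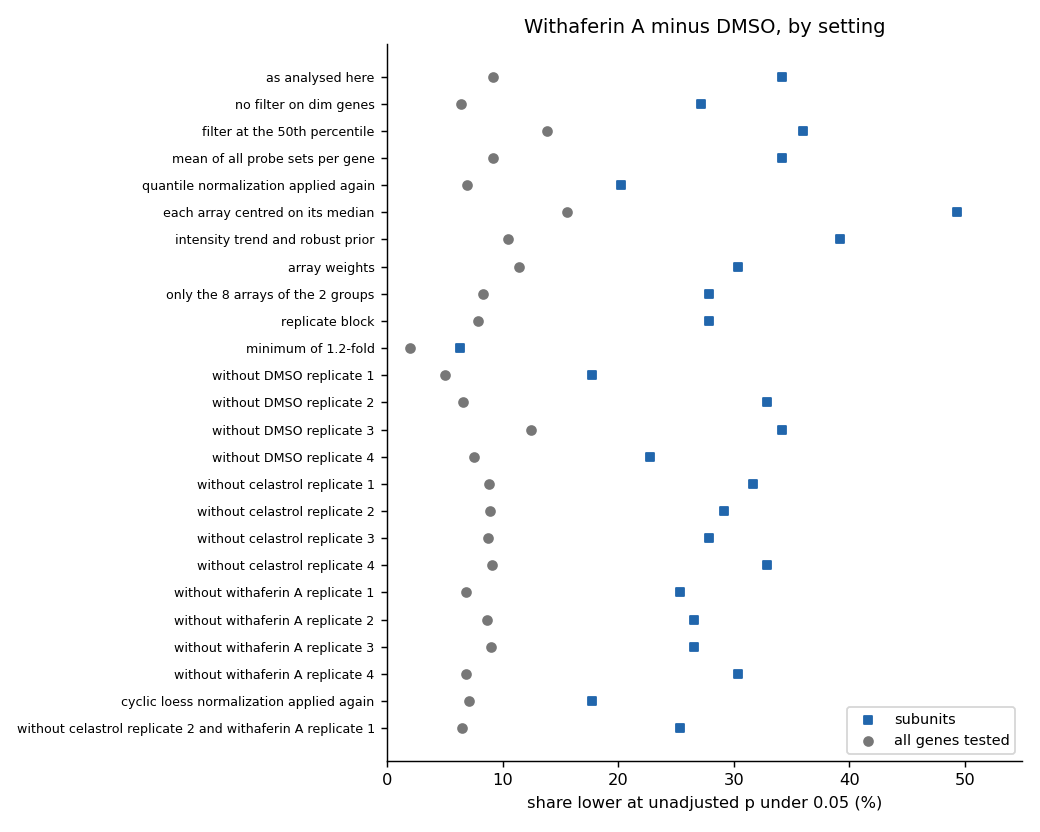
Share of subunits (blue squares) and of all genes tested (grey circles) that were lower after withaferin A than with DMSO at an unadjusted p under 0.05 (x axis, in percent), under each processing setting (y axis). The share of subunits is 34.2% as analysed here, lies above that of all genes in every setting shown, and is 20.3% after quantile normalization and 17.7% after cyclic loess.

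Celastrol was set against DMSO in the same fit, with the same DMSO arrays. Subunits below DMSO numbered 62 of 79, with 58 after quantile normalization and 54 after cyclic loess. The values were small: the median was -0.05, against -0.02 for all genes. None passed the adjusted threshold in limma, where 0.769% of all genes did, and the smallest adjusted p of a subunit was 0.315. At an unadjusted p under 0.05, 5 subunits were lower (6.33%), against 6.25% of all genes, and 0 were higher, against 4.19%. The groups did not overlap in 5 subunits with lower values, against 4.5% of all genes, and in 1 with higher values, Sdha, against 2.71%. In the fit as analysed these shares are near or below those of all genes. With a robust prior that follows intensity, 10 of 79 subunits were lower, against 1052 of 14953 genes.

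Atp5e, the epsilon subunit of the central stalk, had 8.38, 8.20, 8.36 and 7.99 on celastrol arrays and 8.48, 8.51, 8.50 and 8.38 on DMSO arrays. The celastrol arrays lay below the DMSO arrays, with replicate 4 lowest, and the change was -0.24 ± 0.09 (adjusted p = 0.315). The other 4 low subunits were Atp5g1 (-0.13 ± 0.05), Cox6a1 (-0.20 ± 0.08), Ndufc2 of the complex I membrane arm (-0.14 ± 0.06) and Ndufa13, also known as GRIM-19 (-0.12 ± 0.05). Their adjusted p-values lay between 0.364 and 0.433. Ndufc2 had 12.81, 12.80, 12.75 and 12.78 on celastrol arrays and 13.07, 12.91, 12.88 and 12.85 on DMSO arrays, which did not overlap.

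By complex, the celastrol medians were -0.05 for complex I, -0.10 for complex II, -0.01 for complex III (0.0063 after cyclic loess), -0.05 for complex IV and -0.05 for complex V. In complex II, Sdhb, Sdhc and Sdhd had changes of -0.11 ± 0.05, -0.10 ± 0.05 and -0.12 ± 0.06, with adjusted p-values between 0.521 and 0.536, and Sdha had 0.03 ± 0.04. Uqcr10 had -0.09 ± 0.08, Uqcrb 0.12 ± 0.10 and Uqcrc2 0.05 ± 0.06. Cox7a1 and Cox6b2 both had -0.13 ± 0.08, Ndufa7 had -0.18 ± 0.08 and Atp5g2 had -0.10 ± 0.05.

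Outside the subunits 1 of the 136 pathway genes passed the adjusted threshold with celastrol, a share of 0.735% near the 0.769% of all genes. Pdk4, the kinase that shuts off pyruvate dehydrogenase and so limits the entry of pyruvate into the cycle, rose by a log2 value of 1.13 ± 0.15 (adjusted p = 0.0122), or 2.20-fold. With withaferin A its change was 0.33 ± 0.15 (adjusted p = 0.311), and the direct difference, withaferin A minus celastrol, was -0.80 ± 0.15 (adjusted p = 0.0722).

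Withaferin A was then set against celastrol directly, in arrays that shared no control. Of 79 subunits 59 had a lower mean with withaferin A (40 after quantile normalization and 44 after cyclic loess), with a median of -0.04 against 0.01 for all genes. None passed the adjusted threshold in limma, where 0.0468% of all genes did; the smallest adjusted p was 0.179. At an unadjusted p under 0.05, 15 subunits were lower (19.0%), against 7.46% of all genes, and 0 were higher, against 8.67%. In 12 all withaferin A arrays lay below all celastrol arrays, against 5.35% of all genes, and in 0 all lay above, against 3.92%.

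Atp5md stood first here, with a change of -0.37 ± 0.11 (adjusted p = 0.179), followed by Atp5h (-0.22 ± 0.07, adjusted p = 0.184) and Ndufv2 (-0.21 ± 0.07, adjusted p = 0.189). In each of the 3 every withaferin A array lay below every celastrol array, as the values above show. Ndufb8 had -0.20 ± 0.07, Uqcrb -0.27 ± 0.10, Atp5pb -0.23 ± 0.09 (-0.0071 on its second probe set), Ndufv3 -0.16 ± 0.06, Uqcrh -0.14 ± 0.06 and Cox7b -0.19 ± 0.09. In complex II all 4 subunits lay between -0.01 and 0.03. Cox6b2 had 0.18 ± 0.08, Cox5a, a common subunit of complex IV, -0.10 ± 0.05, and Uqcrc2 -0.08 ± 0.06.

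The count of 15 depended on single arrays and on the scale. It was 5 without celastrol replicate 2, the array with high pituitary markers, where 5.70% of all genes met the same rule. Without celastrol replicate 1 it was 8, against 979 of all 14953 genes, and without withaferin A replicate 2 it was 9, against 975. It was 7 after quantile normalization (8.86%, against 6.63% of all genes) and 8 after cyclic loess (10.1%, against 7.63%), with subunit medians of -0.0011 and -0.0053. Among the 136 pathway genes 12 were lower (8.82%, against 7.46% of all genes) and 5 higher (3.68%, against 8.67%), shares near or below those of all genes. Cycs had -0.27 ± 0.10 (adjusted p = 0.221) and Esrra, the estrogen-related receptor alpha, 0.27 ± 0.08 (adjusted p = 0.176).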

How the data were processed

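Hypothalamic RNA was measured on 12 one-colour Affymetrix arrays, 4 per group. Per the labels and the submitters' processing notes, the deposited values are log2 signals processed by the authors with RMA; its version is not given in the sources used here. No counts underlie them, so precision rests on how many arrays there are. The p-values weigh a difference between groups against the spread between these arrays, estimated over all 3 groups. Of 35556 probe sets, 21789 had 1 gene symbol, 1621 several and 12146 none. The brightest of a gene's single-symbol probe sets was used (19938 genes), genes below the 25th percentile were left out, and 14953 were tested.

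One limma fit (version 3.58.1) held the 3 group means over the 12 arrays (R 4.3.3; lmFit and eBayes, 9 residual degrees of freedom), two-sided, with Benjamini-Hochberg adjustment over the 14953 genes; intervals are at 95%. The fit was tested on simulated data, with added changes larger than any in the subunits and noise drawn separately for each gene. That test does not show how the fit does with changes as small as those of the subunits. The subunits and lists were chosen with earlier results of these data known. Named were, per complex and comparison, the 3 subunits with the smallest p, all of complex II, any past the adjusted threshold, members near the filter, and the tissue-restricted forms with their common counterparts; the rule also took the brightest and dimmest member of each complex, not all of which are given. Of the pathway lists up to 3 genes each were named. Ndufv1, Ndufs4, Ndufs7, Ndufs8, Uqcrc1, Uqcrfs1, Atp5a1, Atp5b, Atp5g3 and Atp5l were named for their role or part in the enzyme after their values were seen. Alternatives were other filters, scalings and fits, a replicate block, and leaving out single arrays. Sequences are from RefSeq (GRCm38.p6).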

Additional observations from a re-analysis of the deposited data

Results flagged for a closer look

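In 99 groups of 4 arrays, formed by the named subunits in each treatment, the gap between the highest or lowest array and the next was compared with the whole range of the group, and 6 groups had a gap beyond the 95% critical value; about 1 in 20 does by chance. The low array of Ndufc2 was withaferin A replicate 3, at 12.6 against 12.76 to 12.77 on the others. Uqcrc2 was high on withaferin A replicate 2, at 11.69 against 11.60 to 11.62. With celastrol, Ndufv2 was high on replicate 2, at 11.2 against 11.07 to 11.09, and Sdha on replicate 4, at 11.64 against 11.62. With DMSO, Cox7a1 was high on replicate 3, at 8.04 against 7.71 to 7.76, and Ndufa7 on replicate 4, at 9.64 against 9.52 to 9.53.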

How the results depend on the processing

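Subunits past the adjusted threshold numbered 0 in all 3 comparisons under every alternative, except 5 for withaferin A against DMSO without DMSO replicate 3 (range 0 to 5 when single arrays were left out). The median of the subunits kept its sign in every alternative run. For withaferin A against DMSO it was -0.037 after quantile normalization, -0.049 after cyclic loess and -0.142 with arrays centred on their medians, which put the median of all genes at -0.05. For withaferin A against celastrol the same settings gave -0.0011, -0.0053 and -0.079. When single arrays were left out, the medians ran from -0.104 to -0.083 for withaferin A against DMSO, from -0.060 to -0.029 for celastrol against DMSO and from -0.056 to -0.041 for withaferin A against celastrol.

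Subunits lower at an unadjusted p under 0.05, 27 for withaferin A against DMSO, were 16 after quantile normalization, 14 after cyclic loess and 5 with a minimum of 1.2-fold, and 14 (without DMSO replicate 1) to 27 when single arrays were left out. Of all 14953 genes tested 1034, 1057 and 295 met the rule in these settings, and 745 to 1862 over single omissions. For celastrol against DMSO the 5 became 8 of 75 with a filter at the 50th percentile, where 835 of 9969 genes met the rule. They became 10 with a robust prior that follows intensity (the trend), against 1052 of 14953 genes, and 0 with the minimum of 1.2-fold, against 214. When single arrays were left out they ran from 2 (without DMSO replicate 4, or celastrol replicate 4) to 9 (without celastrol replicate 1), with 760 to 1176 of all genes. For withaferin A against celastrol the 15 became 7 after quantile normalization, 8 after cyclic loess, 2 with the minimum of 1.2-fold and 8 without celastrol replicate 2 and withaferin A replicate 1, with 5 to 16 when single arrays were left out. Of all genes 991, 1141, 320 and 778 met the rule in these settings, and 782 to 1290 over single omissions. Subunits higher at this threshold were few. The 1 for withaferin A against DMSO became 0 with the 50th percentile filter, quantile normalization, median centring, the trend, array weights, fits to 8 arrays, the replicate block, the 1.2-fold minimum and the joint omission, and ran from 0 to 1 over single omissions. After cyclic loess the 1 for withaferin A against DMSO was Sdha and not Cox4i2. The 0 for celastrol against DMSO became 1 with the trend, array weights and cyclic loess, and 0 to 1 over single omissions. The 0 for withaferin A against celastrol became 1 without a filter and with quantile normalization, the trend, 8 arrays and cyclic loess, 2 with the joint omission, and 0 to 2 over single omissions. The causes were not tested, beyond the fewer samples of an omission and the stricter rule of a minimum fold.

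After quantile normalization and cyclic loess the sign of the change turned in 15 and 19 of 79 subunits for withaferin A against DMSO, in 4 and 8 for celastrol against DMSO and in 21 and 17 for withaferin A against celastrol. The median of complex III for withaferin A against DMSO turned to 0.0016 after quantile normalization, and for withaferin A against celastrol those of complexes IV and V turned to 0.016 and 0.0091. Of the complex II subunits, withaferin A minus celastrol was 0.047 (quantile), 0.048 (cyclic loess), 0.0019 (array weights) and 0.0034 (joint omission) for Sdha, with -0.023 to 0.0080 over single omissions; 0.042, 0.032 and 0.011 for Sdhc under quantile, cyclic loess and joint omission, with -0.030 to 0.0010; -0.0065 (centred) and -0.024 (joint omission) for Sdhb, with -0.0049 to 0.062; and -0.012 (centred) for Sdhd, with -0.014 to 0.056. For withaferin A minus DMSO, Sdha was -0.020 with centred arrays and 0.098 after cyclic loess.

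Replicate numbers were not used to pair the samples in the main fit. Deviations of same-numbered arrays correlated between -0.28 and 0.12. Arrays with different numbers were not set beside them, so these values do not show whether the numbers hold a pairing. With the replicate block the lower counts were 22, 4 and 14 for withaferin A against DMSO, celastrol against DMSO and withaferin A against celastrol, and 0 subunits passed the adjusted threshold. Cyclic loess and the joint omission were chosen after the data were seen. With 4 arrays a group and changes mostly under 0.3, a missed threshold does not show that subunits were alike between groups.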
